A study of Homo sapiens and Mus musculus with 15 samples.

Results

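CIITA and the MHC class II genes that it controls were followed in 2 myeloma lines, in drug-naive cells and in cells selected for resistance to a proteasome inhibitor. The set is a list of named genes. In the human line RPMI-8226, a plasma cell myeloma line, it holds CIITA, CD74, HLA-DRA, HLA-DRB1, HLA-DPA1, HLA-DPB1, HLA-DQA1 and HLA-DMB. In the mouse line 5TGM1, a transplantable myeloma of plasma cell origin, it holds Ciita, Cd74, H2-Eb1 and H2-DMb1. These are 8 of 23346 human gene rows and 4 of 23329 mouse gene rows, 12 of 46675 in all, and 12 of 12 passed the filter on low counts. The genes were chosen by the differences in RNA level between these groups that earlier work on the same counts had shown, so their levels and changes are given as a description and no p-value is attached to them.

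MHC class II molecules are pairs of an alpha and a beta chain that present peptides from endosomes to CD4 T cells. The invariant chain, encoded by CD74, holds new pairs in place until HLA-DM exchanges its remnant for a peptide. CIITA is a coactivator that does not bind DNA itself: it docks on RFX, CREB and NF-Y proteins assembled on the X and Y boxes of class II promoters. B cells express these genes, and differentiation into plasma cells normally silences CIITA through the repressor BLIMP-1, encoded by PRDM1.

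RNA was sequenced from 15 libraries in 5 groups of 3. The mouse groups were wild type drug-naive 5TGM1 and bortezomib-resistant 5TGM1 kept in 20 nM bortezomib. The human groups were wild type drug-naive RPMI-8226, a bortezomib-resistant line kept in 10 nM bortezomib and a carfilzomib-resistant line kept in 10 nM carfilzomib. Both drugs inhibit the proteasome. The resistant lines had been selected over months in rising drug, and the drug was withdrawn 5 days before RNA was taken. The labels describe 1 resistant line for each drug and host line, so resistance, drug exposure and anything else that came with its selection cannot be told apart. They do not say that the libraries of a group came from separate cultures, so the spread behind each error and p-value is one between libraries and may be technical.

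Reads on genes totalled 31709636 to 58419576 per human library and 49097494 to 72288680 per mouse library. Levels are given as CPM, counts scaled to 1000000 reads on genes with TMM factors. A gene without reads could lie up to 3 counts, which is 0.0514 to 0.0946 CPM in human and 0.0415 to 0.0611 CPM in mouse libraries. Such limits cover counting error only. These limits, and the fold bounds and ratios of depth-scaled counts below, used read totals without TMM factors. They are therefore not on the scale of the levels. Of the 8 plasma cell markers checked in RPMI-8226, 7 reached 10 CPM in each group, and of the 7 with a row in 5TGM1, 5 did so in both groups. Bulk RNA cannot tell more cells that express a gene from more RNA per cell.

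Promoter sequence was available for 6 of the 8 human members. Shown are the 130 bases before the start of 5 of them in RefSeq (GRCh38.p14; the submitters' notes name other builds, so these coordinates do not belong to the count files). They are shown because the X and Y boxes of class II promoters are where the CIITA complex assembles. Capitals mark CCAAT or its reverse ATTGG, the core of a Y box, and TGATGA, letters found at the end of the X box of several class II genes, searched on both strands.
CD74 (chr5:150412911-150413040, minus strand): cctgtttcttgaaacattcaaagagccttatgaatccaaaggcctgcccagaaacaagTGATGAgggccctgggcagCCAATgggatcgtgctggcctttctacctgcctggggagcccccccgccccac
HLA-DRB1 (chr6:32589849-32589978, minus strand): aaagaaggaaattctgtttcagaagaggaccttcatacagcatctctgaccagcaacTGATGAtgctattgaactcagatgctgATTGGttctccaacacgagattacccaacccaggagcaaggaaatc
HLA-DMB (chr6:32941029-32941158, minus strand): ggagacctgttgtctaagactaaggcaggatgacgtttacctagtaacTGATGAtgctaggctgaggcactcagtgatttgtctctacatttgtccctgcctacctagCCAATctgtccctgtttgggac
HLA-DPB1 (chr6:33075860-33075989, plus strand): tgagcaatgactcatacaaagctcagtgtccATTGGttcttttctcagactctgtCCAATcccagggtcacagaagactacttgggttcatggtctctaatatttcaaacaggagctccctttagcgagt
HLA-DQA1 (chr6:32637276-32637405, plus strand): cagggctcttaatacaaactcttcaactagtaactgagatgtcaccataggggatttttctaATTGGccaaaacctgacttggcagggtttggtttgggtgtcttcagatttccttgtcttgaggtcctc

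CD74, HLA-DRB1 and HLA-DMB hold both kinds of letters, with TGATGA upstream of the Y box letters. Their first letters lie 19 bases apart in CD74, 27 in HLA-DRB1 and 60 in HLA-DMB. HLA-DPB1 and HLA-DQA1 hold the Y box letters without TGATGA, and neither of the 2 HLA-DPA1 windows holds CCAAT. Over 14 windows of 13 class II genes, CCAAT was found in 12, TGATGA in 7 and both in 6. Of 35116 RefSeq windows of 300 bases, running from 250 bases before a start to 50 after it, 34.6% held CCAAT, 10.9% held TGATGA and 4.11% held both. A match of letters is a description of the sequence, and binding was not measured.

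In RPMI-8226, all 8 members were higher in the bortezomib-resistant line than in naive cells, without overlap between libraries, by 7.14-fold for CIITA to 191-fold for HLA-DQA1. Their median log2 change was 5.02, beside -0.03 over the 13910 genes tested. The carfilzomib-resistant line differed: CIITA was not higher there, and the 7 other genes stood 1.13-fold to 7.76-fold above naive cells. Both resistant lines were compared with the same 3 naive libraries. Calls were set at 0.05 on the adjusted p of edgeR's quasi-likelihood test, and they were common. Of all genes tested, 38.2% were called higher and 41.6% lower in the bortezomib-resistant line, and 38.5% were higher and 41.2% lower in each of its libraries than in any naive one. Scaling by library size alone raised the share of calls that were higher from 47.9% to 58.7%. For the carfilzomib-resistant line 35.0% were called higher and 36.7% lower, and 36.3% were higher and 36.8% lower without overlap. The members' counts rest on contrasts that were known when they were listed, so nothing is read from the comparison with these shares.

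CIITA itself was a gene of low count. Its level was 1.88, 0.984 and 1.30 CPM in the 3 naive libraries, 9.06, 10.6 and 10.1 CPM in the bortezomib-resistant ones, and 0.969, 1.01 and 1.18 CPM in the carfilzomib-resistant ones. The bortezomib-resistant libraries stood apart from the other 6, and the naive and carfilzomib-resistant libraries overlapped. Reads on the gene numbered 171, 1065 and 161 in the 3 groups. The log2 change was 2.82 ± 0.16 (SE) in the bortezomib-resistant line and -0.41 ± 0.21 in the carfilzomib-resistant line, where the gene was not called. The latter value rests on single naive libraries: it was -0.10 without naive replicate 1, the highest, and -0.61, past the threshold, without naive replicate 2, the lowest.

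CD74 was the member with the most reads. It was at 148, 144 and 146 CPM in naive libraries, 1260, 1199 and 1337 CPM in bortezomib-resistant ones and 227, 227 and 222 CPM in carfilzomib-resistant ones. The 3 groups did not overlap, and naive cells already held a substantial level of this chaperone. Its log2 change was 3.12 ± 0.06 in the bortezomib-resistant line and 0.63 ± 0.05 in the carfilzomib-resistant line.

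The alpha chain HLA-DRA was the class II chain with the most reads. It measured 11.3, 13.4 and 11.0 CPM in naive libraries, 272, 270 and 284 CPM in bortezomib-resistant ones and 12.7, 13.8 and 14.0 CPM in carfilzomib-resistant ones. Carfilzomib-resistant libraries thus overlapped the naive range, while bortezomib-resistant ones lay far above it. The log2 changes were 4.53 ± 0.08 and 0.18 ± 0.08. The latter was called, but it was not called with DESeq2 or RLE factors (0.16 each), with strand ignored (0.17), without naive replicate 1 (0.14) or 3 (0.13), without carfilzomib-resistant replicate 2 (0.17) or 3 (0.15), or in a fit of only the 6 libraries compared (0.18).

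Its partner, the beta chain HLA-DRB1, started from a far lower read count. Naive libraries held 0.404, 0.530 and 0.434 CPM, bortezomib-resistant ones 49.4, 48.5 and 54.1 CPM and carfilzomib-resistant ones 3.06, 2.80 and 3.01 CPM. Here all 3 groups were separate, with the carfilzomib-resistant line in between. The log2 changes from naive were 6.79 ± 0.11 and 2.70 ± 0.15. Reads on HLA-DRB1 per read on HLA-DRA, a ratio not corrected for gene length, were 0.0383 ± 0.00220 (SD, n = 3) in naive cells, 0.184 ± 0.00566 in the bortezomib-resistant line and 0.220 ± 0.0195 in the carfilzomib-resistant line. The 2 chains of 1 dimer therefore changed by different factors in both resistant lines.

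The DP pair gave a like picture. HLA-DPA1, the alpha chain, was at 0.583, 0.807 and 0.759 CPM in naive libraries, 31.9, 31.5 and 33.9 CPM in bortezomib-resistant ones and 1.10, 1.28 and 1.18 CPM in carfilzomib-resistant ones. HLA-DPB1, the beta chain, was at 0.292, 0.278 and 0.244 CPM in naive libraries, 25.2, 22.6 and 24.7 CPM in bortezomib-resistant ones and 1.48, 1.23 and 1.53 CPM in carfilzomib-resistant ones. Neither gene had overlapping groups. For HLA-DPA1 the log2 changes were 5.51 ± 0.11 (bortezomib-resistant) and 0.73 ± 0.16 (carfilzomib-resistant), and for HLA-DPB1 they were 6.46 ± 0.13 and 2.38 ± 0.20. Reads on HLA-DPB1 per read on HLA-DPA1 went from 0.388 ± 0.0973 (SD, n = 3) in naive cells to 0.746 ± 0.0402 and 1.20 ± 0.208 in the resistant lines. These genes lie side by side on opposite strands, and 4.44% to 8.21% of the stranded reads on HLA-DPA1 were on its opposite strand, more than for the other human members (at most 2.42%). Only reads on the gene's own strand were used.

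HLA-DQA1, the alpha chain of DQ, had the largest fitted change among the members. Naive libraries held 0.112, 0.151 and 0.163 CPM from 17 reads in all, bortezomib-resistant ones 28.3, 26.8 and 26.2 CPM, and carfilzomib-resistant ones 1.14, 0.966 and 1.20 CPM. All 3 groups were separate. The log2 changes were 7.56 ± 0.14 and 2.96 ± 0.23.

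HLA-DMB is the beta chain of the peptide exchange factor HLA-DM. It was at 0.763, 0.706 and 1.06 CPM in naive libraries, 10.8, 10.4 and 10.9 CPM in bortezomib-resistant ones and 1.84, 1.76 and 2.10 CPM in carfilzomib-resistant ones. The groups did not overlap. The log2 changes were 3.67 ± 0.13 and 1.19 ± 0.16.

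**Figure D1:**
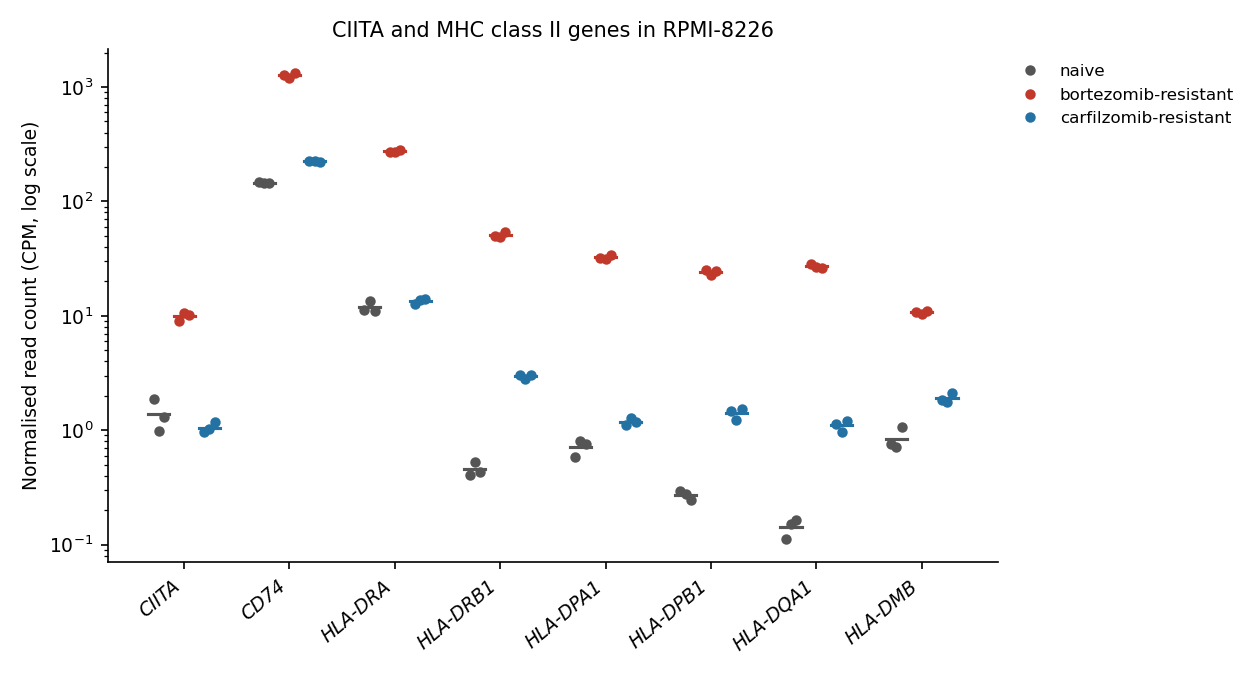
Normalised read count (CPM, log axis) of the 8 members in each RPMI-8226 library; points are libraries, bars are group means, n = 3 per group. Bortezomib-resistant libraries are highest for each of the 8 genes, while carfilzomib-resistant libraries overlap naive ones for CIITA and HLA-DRA and lie between the other groups for the other 6.

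Set directly against each other, the resistant lines differed in the same direction for all 8 members. Each was lower in the carfilzomib-resistant line, without overlap, by 5.62-fold for CD74 and HLA-DMB to 27.3-fold for HLA-DPA1, and the median log2 difference was -4.09. In that comparison 37.0% of all genes tested were called lower and 39.9% higher, and 38.3% were lower and 41.5% higher without overlap. CIITA differed by -3.22 ± 0.16 and HLA-DRA by -4.35 ± 0.07 on the log2 scale. Summed over the 8 members, the level was 162 ± 1.23 CPM (SD, n = 3) in naive cells, 1696 ± 81.0 CPM in the bortezomib-resistant line and 248 ± 2.0 CPM in the carfilzomib-resistant line. Without CD74 the sums were 15.7 ± 1.01, 430 ± 12.3 and 23.1 ± 1.0 CPM, so most of the reads in each group were on CD74.

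Other class II genes, which were not members, were listed with earlier results of these data known, so their counts are a description. HLA-DRB5, HLA-DRB6, HLA-DQA2, HLA-DQB1, HLA-DQB2 and HLA-DOA had 14 or fewer reads in naive libraries. They passed the filter on low counts through resistant libraries, so their direction is not a test. In RPMI-8226, 8 of 10 listed genes had a row, and all 8 rose in the bortezomib-resistant line, with a median log2 change of 6.78 (6.54 with genes without naive reads at their bound). In the carfilzomib-resistant line 7 rose, with a median of 3.51 (2.97 with bounds) over the 8, beside 0.00 over all genes. Between the resistant lines all 8 were lower in the carfilzomib-resistant one, with a median of -3.27. Of all genes tested, 38.2% were called higher in the bortezomib-resistant line and 35.0% in the carfilzomib-resistant line. Between the resistant lines, 37.0% were called lower in the carfilzomib-resistant one. HLA-DMA, the alpha chain of HLA-DM, rose from 3.90 ± 0.290 (SD, n = 3) to 28.0 ± 1.64 CPM in the bortezomib-resistant line and to 7.04 ± 0.426 CPM in the carfilzomib-resistant line. HLA-DRB5, another DR beta chain, rose from 0.119 ± 0.0633 to 12.1 ± 1.51 CPM and to 1.28 ± 0.281 CPM. HLA-DQA2 had no read in naive libraries against 584 and 26 in the resistant lines. By read totals without TMM factors this was at least 249-fold and at least 7.22-fold higher, with the limit of 3 counts taken over the group. The DQ beta chain HLA-DQB1 had 2 reads in naive libraries and 476 in bortezomib-resistant ones, a ratio of depth-scaled counts of 305 (95% exact interval 84.0 to 2526). HLA-DOA, a chain of the HLA-DM inhibitor HLA-DO, was at least 50.8-fold and at least 6.11-fold higher, again against no read in naive cells.

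The other HLA-DO chain, HLA-DOB, moved least. It was at 1.36 ± 0.382 CPM in naive cells and 2.48 ± 0.334 CPM in the bortezomib-resistant line (log2 0.86). In the carfilzomib-resistant line it was at 1.39 ± 0.155 CPM and was not called (log2 0.02 ± 0.20, sign reversed with RLE factors). Reads that map to several places, 8.95% to 10.9% of reads in human libraries, were not counted. Levels of near-identical genes such as HLA-DRB1 and HLA-DRB5, or HLA-DQA1 and HLA-DQA2, are uncertain for that reason.

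Between HLA-DRA and HLA-DPB1, RefSeq lists 13 of these class II genes and 5 tested genes of other kinds, an interval chosen after the values were seen. All 13 class II genes were called higher in the bortezomib-resistant line, where 38.2% of all genes tested were. The 5 others, interspersed with them, moved by less than 1 log2 unit and in both directions. TAP1, a peptide transporter subunit for class I, changed by 0.70 ± 0.07, PSMB9 and PSMB8, subunits of the immunoproteasome, by 0.45 ± 0.08 and 0.31 ± 0.07, and TAP2 and the bromodomain gene BRD2 by -0.46 ± 0.05 and -0.36 ± 0.05. All 5 were called, 3 higher and 2 lower, where 38.2% of all genes tested were called higher and 41.6% lower. Around CIITA, the neighbours NUBP1, DEXI and CLEC16A fell in the same comparison by 0.42, 1.15 and 0.42 on the log2 scale.

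**Figure D2:**
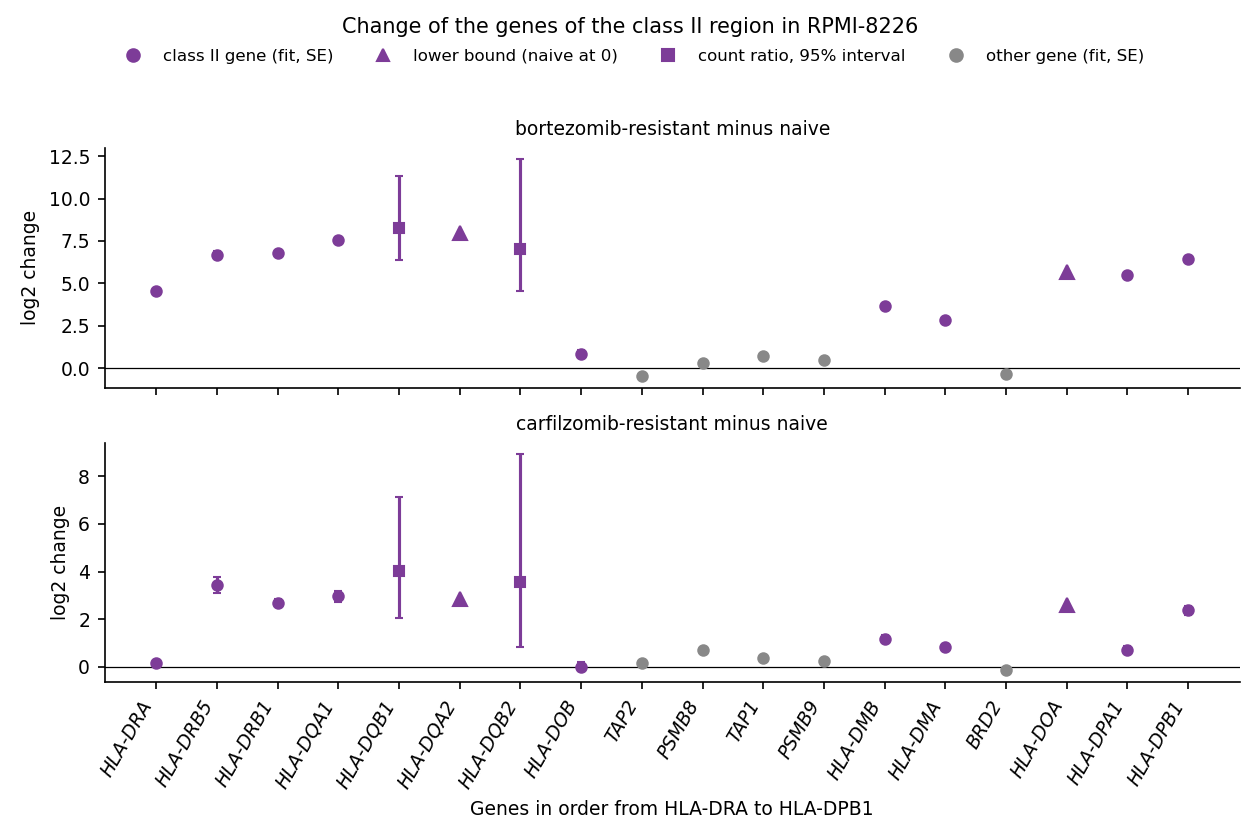
Log2 change from naive RPMI-8226 for the genes from HLA-DRA to HLA-DPB1 in their order on the chromosome, in the bortezomib-resistant (top) and carfilzomib-resistant (bottom) lines, with separate vertical scales. Circles are fitted changes with SE, triangles lower bounds where naive libraries held no read, and squares count ratios with 95% intervals; among class II genes (purple) in the top panel the fitted change of HLA-DQA1 is 7.56, with HLA-DQB1 and HLA-DQA2 plotted above it, and the 5 other genes (grey) stay between -0.46 and 0.70.

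Genes that act on CIITA or on class II promoters did not share 1 direction. Beside the RPMI-8226 list counts here and below stand the shares of all genes tested. In the bortezomib-resistant line 38.2% were called higher and 41.6% lower, and in the carfilzomib-resistant line 35.0% and 36.7%. Of 8 listed proteins of the promoter complex, 2 rose and 4 fell in the bortezomib-resistant line, and 3 rose and 2 fell in the carfilzomib-resistant line (median log2 change -0.13 and 0.11). RFX5, a subunit of RFX, rose from 156 ± 6.64 to 200 ± 1.02 CPM and to 222 ± 6.23 CPM (edgeR adjusted p = 8.12e-06 and 1.98e-07). RFXAP, its partner, fell from 15.1 ± 0.282 to 6.96 ± 0.634 CPM in the bortezomib-resistant line (adjusted p = 4.08e-09) and measured 16.3 ± 0.659 CPM in the carfilzomib-resistant line (adjusted p = 0.19, called with library size alone at 0.047). RFXANK, the third RFX subunit, was not called in the bortezomib-resistant line (log2 0.04 ± 0.08, adjusted p = 0.69, near 0 with a sign that changed between settings, and called at 0.22 with library size alone), and fell by 0.41 in the carfilzomib-resistant line (adjusted p = 0.000231). Of the 7 coactivators, 2 rose and 5 fell in the bortezomib-resistant line and 3 rose and 1 fell in the other (median -0.24 and 0.03), and the acetyltransferase CREBBP fell by 1.02 in the former.

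Of 13 tested genes that drive the CIITA promoters, 8 rose and 4 fell in the bortezomib-resistant line, and 9 rose and 3 fell in the carfilzomib-resistant line (median 0.40 in each). JAK2, a kinase of cytokine receptors, rose from 7.55 ± 0.476 to 19.5 ± 0.993 CPM in the bortezomib-resistant line (log2 1.36, edgeR adjusted p = 4.01e-10) and to 16.8 ± 1.19 CPM in the carfilzomib-resistant line (log2 1.15, adjusted p = 4.41e-09). IRF1, an activator of CIITA, fell by 0.60 in the former and was not called in the latter (-0.11, adjusted p = 0.14).

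The resistant lines lay on opposite sides of naive cells for several other activators of this list, among them IRF8 and SPI1. Values of IRF4, IRF2, IFNGR1 and IFNGR2 are given here by a choice made after they were seen. IRF4 was at 358 ± 20.0, 541 ± 13.9 and 155 ± 5.44 CPM in naive, bortezomib-resistant and carfilzomib-resistant cells. IRF2 was at 60.4 ± 5.08, 79.8 ± 2.25 and 50.3 ± 2.28 CPM. The receptor genes IFNGR1 and IFNGR2 of the same list lay the other way. IFNGR1 was at 43.2 ± 2.03, 29.6 ± 0.934 and 57.1 ± 2.83 CPM, and IFNGR2 at 78.3 ± 0.678, 67.8 ± 3.98 and 88.5 ± 4.46 CPM. IRF8 rose from 55.6 ± 2.58 to 130 ± 2.43 CPM in the bortezomib-resistant line and fell to 21.6 ± 0.384 CPM in the carfilzomib-resistant line (edgeR adjusted p = 5.92e-12 and 4.55e-12). SPI1, which encodes PU.1, fell from 31.4 ± 2.56 to 14.0 ± 0.782 CPM and rose to 37.8 ± 3.0 CPM (adjusted p = 2.48e-09 and 0.00547). Between the resistant lines, IRF8 was lower in the carfilzomib-resistant one by 2.59 and SPI1 higher by 1.43 on the log2 scale (adjusted p = 2.01e-15 and 2.12e-10). PAX5, the B cell factor, had too few reads to be tested.

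PRDM1, whose product BLIMP-1 represses CIITA, fell in both resistant lines. It was at 95.9 ± 2.58 CPM in naive cells, 37.3 ± 2.54 CPM in the bortezomib-resistant line and 41.2 ± 1.41 CPM in the carfilzomib-resistant line (log2 -1.36 and -1.22, edgeR adjusted p = 9.14e-12 and 4.48e-11). On the log2 scale, carfilzomib-resistant minus bortezomib-resistant, CIITA differed by -3.22 ± 0.16 and PRDM1 by 0.14 ± 0.06. The PRDM1 difference (edgeR adjusted p = 0.044) was not called with library size alone, or with the replicate number as a block at 0.054. It was also not called at 0.09 to 0.16 without replicate 1 or 3 of either line. A part of PRDM1 in the CIITA levels was not tested. Of 9 tested genes that repress CIITA, 5 rose and 4 fell in the bortezomib-resistant line and 3 rose and 4 fell in the other (median 0.31 and 0.04). The corepressor SIN3A fell by 2.47 and the deacetylase HDAC1 rose by 1.08 in the bortezomib-resistant line.

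**Figure D3:**
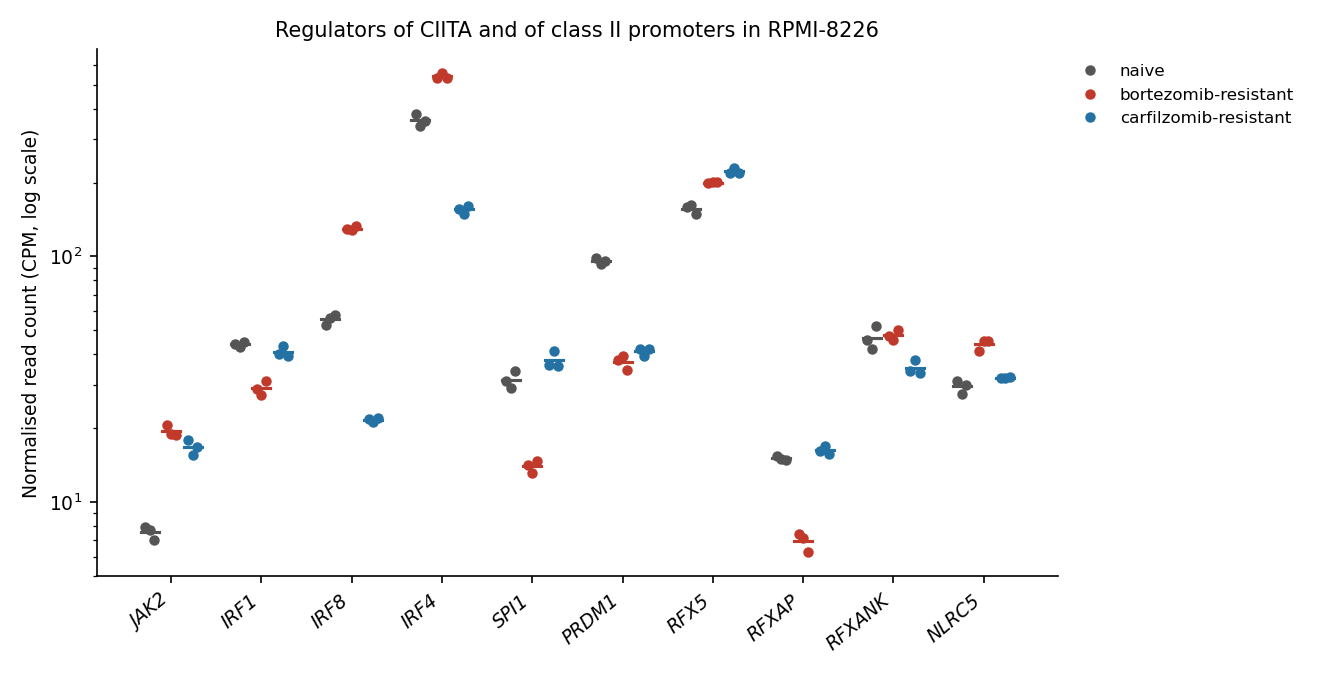
Normalised read count (CPM, log axis) of 10 regulators in each RPMI-8226 library; points are libraries, bars are group means, n = 3 per group. IRF8 rises from 55.6 to 130 CPM in the bortezomib-resistant line and is at 21.6 CPM in the carfilzomib-resistant one, while PRDM1 is at 37.3 and 41.2 CPM in the resistant lines against 95.9 CPM in naive cells.

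Genes of the endosomal route moved in both directions. Of 12 tested genes for antigen processing and class II turnover, 2 rose and 8 fell in the bortezomib-resistant line, and 5 rose and 7 fell in the carfilzomib-resistant line (median -0.60 and -0.43). The thiol reductase gene IFI30 fell from 338 ± 22.2 to 143 ± 9.57 and 130 ± 6.77 CPM. LGMN, an endosomal protease, fell by 0.79 and 1.43 on the log2 scale. CTSH, encoding cathepsin H, went from 1781 reads in naive libraries to none in bortezomib-resistant ones, at least 463-fold lower, and fell by 1.54 in the carfilzomib-resistant line. Values of the ubiquitin ligase genes MARCH1 and MARCH8 are given here by a choice made after they were seen. MARCH1, whose product removes class II from the cell surface, was at 0.0863, 3.87 and 0.412 CPM in naive, bortezomib-resistant and carfilzomib-resistant cells, from 10, 416 and 63 reads. Its log2 changes from naive cells were 5.50 and 2.29. MARCH1 passed the filter on low counts through resistant libraries, so its direction is not a test. MARCH8 was at 8.20, 0.120 and 12.7 CPM, and fell by 6.05 in the bortezomib-resistant line (edgeR adjusted p = 7.27e-14) and rose by 0.63 in the carfilzomib-resistant line (4.31e-06).

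Molecules that meet T cells beside class II moved both ways. Of 10, 4 rose and 6 fell in the bortezomib-resistant line, and 4 rose and 5 fell in the carfilzomib-resistant line (median -0.39 and -0.05). The costimulatory ligand CD86 fell from 30.5 ± 3.28 to 0.860 ± 0.183 CPM in the bortezomib-resistant line, where class II was highest, and rose to 46.4 ± 1.81 CPM in the carfilzomib-resistant line (edgeR adjusted p = 9.47e-15 and 5.33e-06). ICAM1, an adhesion molecule, rose from 249 ± 10.1 to 521 ± 23.1 CPM in the former. TNFSF9, the 4-1BB ligand, rose by 2.89 and 4.30 on the log2 scale. On the class I side, the transactivator NLRC5, a relative of CIITA, rose by 0.57 in the bortezomib-resistant line, where the 6 class I genes listed with it fell, B2M by 0.86. The median of the 7 was -0.43 there and -0.26 in the carfilzomib-resistant line, where 1 rose and 4 fell.

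Markers of other cell types were read in the same libraries. Of 8 B cell markers, CR2, FCER2 and BLK reached 10 CPM in naive RPMI-8226, with means of 37.6, 38.2 and 108 CPM. Only BLK did so in the resistant lines, at 21.6 CPM (bortezomib) and 75.4 CPM (carfilzomib). CD79B was at a mean of 0.395, 0.00973 and 0.0375 CPM in the 3 RPMI-8226 groups. The summed level of the list was 186 to 193 CPM in naive libraries, 21.5 to 22.7 in bortezomib-resistant ones and 74.8 to 79.3 in carfilzomib-resistant ones. All 7 tested B cell markers fell in both resistant lines, where 41.6% (bortezomib) and 36.7% (carfilzomib) of all genes tested were called lower. Of 12 macrophage and dendritic cell markers, the sums were 56.6 to 61.9, 36.9 to 37.6 and 171 to 183 CPM, with CLEC10A at 0 in all groups and CD14 at a mean of 0.0972, 0.0462 and 0.105 CPM. In the carfilzomib-resistant line that sum was mostly ITGAM, at 158 ± 6.50 CPM. EMR1 of the same list was at 0.529 ± 0.0663, 16.7 ± 0.695 and 6.38 ± 0.233 CPM, the only marker of the list at 10 CPM in the bortezomib-resistant line. Summed plasma cell markers were 8143 to 9363, 3312 to 3458 and 5553 to 5771 CPM. Lists of T and NK cell markers (8.83 to 13.0 CPM in sum) and of fibroblast and endothelial markers (0.418 to 2.3 CPM) had no gene at 10 CPM. The part of these differences in the class II result was not tested.

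The genes most like CIITA over the 9 RPMI-8226 libraries were not class II genes. By Pearson correlation of log2(CPM + 0.5) among 9766 genes with a group mean of at least 10 CPM, TNKS, TRPV3, NANOS1, SH2B3 and ZNF606 came first, with r from 0.996 for TNKS to 0.995 for ZNF606. HLA-DRA was the nearest member, at rank 166 (r = 0.98), and HLA-DRB1 the farthest, at rank 1160 (r = 0.91). These correlations are descriptions over 3 groups of 3 libraries that share their group means. Reads on HLA-DRA per read on CIITA were 9.35 ± 3.89 (SD, n = 3) in naive cells, 27.8 ± 2.29 in the bortezomib-resistant line and 12.8 ± 0.885 in the carfilzomib-resistant line.

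In the mouse line the members did not move together. In bortezomib-resistant 5TGM1, Ciita and H2-Eb1 were lower than in naive 5TGM1, H2-DMb1 was higher, and Cd74 was about level. Of the 4 members 2 were called higher and 2 lower, where 34.0% of the 11974 genes tested were called higher and 33.2% lower, and 35.5% and 34.2% were higher or lower without overlap. The median log2 change over the members was -0.64, beside 0.00 over all genes.

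Ciita was close to the depth limit. It was at 0.529, 0.359 and 0.408 CPM in naive libraries and 0.198, 0.156 and 0.122 CPM in bortezomib-resistant ones, from 72 and 26 reads. The groups did not overlap, and the log2 change was -1.39 ± 0.30. H2-Eb1, the beta chain of the mouse class II molecule I-E, was at 66.6, 58.3 and 61.8 CPM in naive libraries and 10.5, 10.6 and 9.72 CPM in resistant ones, a log2 change of -2.60 ± 0.06, or 6.07-fold lower.

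H2-DMb1, a beta chain of mouse DM, went the other way. Its level was 12.5, 12.1 and 12.3 CPM in naive libraries and 31.9, 32.6 and 32.0 CPM in resistant ones, a log2 change of 1.39 ± 0.05 without overlap. Reads on H2-DMb1 per read on H2-Eb1 went from 0.198 ± 0.0103 (SD, n = 3) to 3.14 ± 0.137. Cd74 was the member with the most reads, at 577, 525 and 520 CPM in naive libraries and 581, 572 and 589 CPM in resistant ones. Its groups overlapped, and its call at a log2 change of 0.10 ± 0.04 was lost with DESeq2 (0.10) and without naive replicate 2 or 3 (0.08 each) or any 1 resistant library (0.10 to 0.12).

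**Figure D4:**
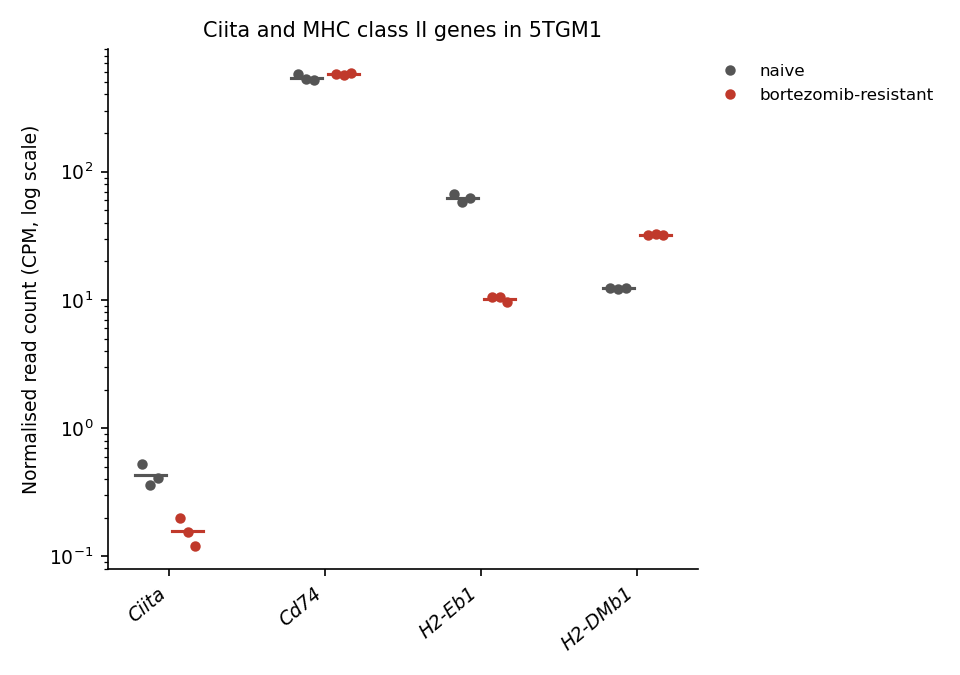
Normalised read count (CPM, log axis) of the 4 members in each 5TGM1 library; points are libraries, bars are group means, n = 3 per group. H2-Eb1 falls from 62.2 to 10.3 CPM and H2-DMb1 goes from 12.3 to 32.1 CPM, while the Cd74 libraries overlap near 541 and 581 CPM.

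Other mouse class II genes had few reads. Of 8 listed, 3 could be tested, with a median log2 change of -0.68. H2-Ob, a DO chain, rose from 3.03 ± 0.166 to 4.88 ± 0.0555 CPM, and H2-DMa, the DM alpha chain, fell from 0.279 ± 0.0944 to 0.111 ± 0.0136 CPM. H2-Ab1, the I-A beta chain, was just short of the threshold and was not called at -0.68 ± 0.29. H2-Ab1 was called, however, with RLE factors, without naive replicate 1 and without resistant replicate 3. H2-Eb2 had 28 reads in naive libraries and none in resistant ones, at least 8.89-fold lower, and H2-Aa had 18 and 6. H2-Ea-ps, the row listed for the I-E alpha chain, had 0 reads in both groups. The H2-Eb1 values are therefore not read as levels of an I-E pair. Reads that map to several places, 15.3% to 16.3% in mouse libraries, were not counted, so near-identical genes such as H2-DMb1 and H2-DMb2 are uncertain.

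Regulators of class II genes moved in both directions in 5TGM1. Beside the list counts, 34.0% of all genes tested were called higher in this line and 33.2% lower. Prdm1 fell from 302 ± 16.2 to 213 ± 3.68 CPM (edgeR adjusted p = 3.48e-08), Irf1 fell by 0.29 and Irf2 fell by 0.79 on the log2 scale. Of 8 proteins of the promoter complex 3 rose and 3 fell (median 0.05), with Rfxap up by 0.53 and Rfx5 down by 0.24. Of 12 tested activators of the Ciita promoters 4 rose and 4 fell (median 0.03), of 7 coactivators 2 rose and 3 fell (median -0.01), and of 9 tested repressors 3 fell and 6 were not called (median -0.06). Genes of the endosomal route rose in 6 of 8 tested cases (median 0.37), Ctsd by 0.80 and Ctsl by 0.73, and Ctsb fell by 0.97. Of 6 tested T cell contact genes 3 fell and 3 were not called (median -0.30).

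Class I genes stood out among the lists for 5TGM1, where 33.2% of all genes tested were called lower. All 5 tested genes of the class I list fell (median -1.95): the transactivator Nlrc5 from 57.2 ± 2.81 to 7.02 ± 0.0536 CPM (log2 -3.03, edgeR adjusted p = 8.01e-17), H2-K1 by 2.29, H2-D1 by 1.95 and B2m by 1.65. Of 8 B cell markers, 1 reached 10 CPM, Cd79b, and the list summed to 128 to 136 CPM in naive and 147 to 155 CPM in resistant libraries. T and NK cell markers summed to 2.0 to 2.78 CPM and fibroblast and endothelial markers to 7.53 to 11.4 CPM, with none at 10 CPM. The sum of macrophage and dendritic cell markers was 287 to 290 and 394 to 443 CPM, of which Cd68 gave 266 and 373 CPM on average. Of the 12 listed, 4 were tested and all 4 were called higher (median log2 1.23), where 34.0% of all genes tested were. Clec10a went from 2.15 to 13.2 CPM. The part of these differences in the class II values was not tested. Over the 6 libraries and 8547 genes, Tnfsf9, Gpn3, Tyms and Coq3 were among the 5 most like Ciita (r from 0.997 for Tnfsf9 to 0.992 for Coq3), H2-Eb1 stood at rank 236 (r = 0.95), and H2-DMb1 ran opposite (r = -0.93).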

How the data were processed

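RNA was sequenced from 9 RPMI-8226 and 6 5TGM1 libraries. The authors deposited a table of read counts per gene symbol for each library, in the layout of STAR, which the submitters' processing notes name. The version and annotation are not given in the sources used here, and no label describes the strandedness of the kit. Column 4, one of the columns of stranded counts, held nearly all stranded reads (1.43% to 2.12% were in column 3) and was used. Rows that name no gene (21.9% to 28.7% of reads in human and 32.7% to 34.4% in mouse libraries) stayed out of library sizes and tests.

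Groups came from the sample titles. Counts were scaled by TMM (factors 0.937 to 1.08), filtered by filterByExpr and tested in R 4.3.3 with edgeR 4.0.16 (limma 3.58.1), with quasi-likelihood F tests and p-values adjusted over all genes tested (Benjamini-Hochberg); all 9 human libraries shared 1 fit. SEs of log2 changes were derived from the F statistic. Alternatives, among them DESeq2 1.42.0, are given in the closing section. The procedure was tested on simulated counts. Replicates differed by more than sampling noise (chi-square per degree of freedom 3.98 to 25.8).

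The members and the lists of other genes were chosen with earlier results of these data known. The text names each member, each gene of the other class II list, set regulators whatever their value (PRDM1, IRF1, IRF8, SPI1, PAX5, RFX5, RFXAP and RFXANK), and from each list up to 4 called genes of at least 10 CPM that moved most; neighbours of the class II genes were added after their values were seen. A few genes that this rule names are not reported here.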

Additional observations from a re-analysis of the deposited data

Results flagged for a closer look

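Bortezomib-resistant and naive cells differed in opposite directions in the 2 lines for several genes, each with every resistant library on one side of the naive ones in RPMI-8226 and on the other side in 5TGM1. The difference between lines was not tested, and matching by symbol is not an orthology table. For CIITA the log2 changes were 2.82 in RPMI-8226 and -1.39 in 5TGM1, a difference of 4.20 (human minus mouse). The DR and I-E beta chains HLA-DRB1 and H2-Eb1 differed by 9.39, from 6.79 and -2.60. The class I transactivator NLRC5 differed by 3.60 (0.57 and -3.03), and TNFSF9 by 3.28 (2.89 and -0.39).

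Smaller differences of this kind were found for DNMT3B (1.73), IRF2 (1.19), RFX5 (0.59) and USF1 (0.47), which were higher in resistant RPMI-8226 and lower in resistant 5TGM1. RFXAP (-1.65), IFI30 (-1.51) and LGMN (-1.19) were lower in resistant RPMI-8226 and higher in resistant 5TGM1.

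Reads on the strand opposite to the gene, which entered no comparison, were compared with naive libraries only where each resistant library held at least 10 of them. With that minimum, 2 members had every bortezomib-resistant RPMI-8226 library above the naive ones. On HLA-DPA1 there were 226 such reads, a mean of 2.25 CPM, against 4 reads and 0.0321 CPM in naive cells. Their share of the stranded reads on HLA-DPA1 was 6.09% against 4.44% in naive cells. On CD74 there were 212, a mean of 2.13 CPM, against 57 and 0.433 CPM, and they made up 0.155% of its stranded reads against 0.322% in naive cells.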

How the results depend on the processing

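Over all alternatives, the member changes kept their sign. Alternatives were no filter, DESeq2, RLE factors, library size alone, counts without regard to strand, a replicate block, only the 6 libraries compared, and leaving out each library. Library size alone moved the median of all genes by 0.18 (bortezomib-resistant minus naive RPMI-8226) and -0.10 (between the resistant lines). The count of 5TGM1 members called higher was 2, and 1 with DESeq2, RLE factors, strand ignored or the replicate block (Cd74 lost; HLA-DRA in carfilzomib-resistant RPMI-8226 lost its call with the first 3), and 1 to 2 over the leave-one-out fits. Members called lower in carfilzomib-resistant RPMI-8226 numbered 0, and 0 to 1 over those fits (CIITA, without naive replicate 2). Signs reversed for RFXANK in the bortezomib-resistant line (-0.00611 with strand ignored; -0.0377 to 0.120 without 1 library) and for HLA-DOB in the carfilzomib-resistant line (-0.00406 with RLE factors; -0.183 to 0.146 without 1 library). For these 2 genes the cause was not tested. Among the other values of listed genes, 23 were no longer called under an alternative and 9 became called. The 5 genes most like CIITA were the same with a pseudocount of 1, 4 of 5 were for Ciita, and 0 of 5 were most like HLA-DRA or H2-Eb1. With the replicate number as a block, 7716 genes were called in 5TGM1 against 8051, and 11094 against 11095, 9986 against 9972 and 10709 against 10690 in the RPMI-8226 comparisons. Deviations from group means correlated between same-numbered libraries at r from -0.18 to -0.08 in 5TGM1 and -0.22 to 0.34 in RPMI-8226. The highest, 0.34, was between replicate 3 of naive and replicate 3 of bortezomib-resistant RPMI-8226. With 3 libraries per group, these values cannot decide whether the numbers pair the samples. Among the members, reads were fewest for Ciita (26 in resistant 5TGM1) and naive HLA-DQA1 (17).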
